A study of Mus musculus with 21 samples.

Results

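The tRNAs that carry isoleucine and proline were compared between back skin of WT and NSun2-/- mice. Members were all tRNA genes whose names end in IleAAT, IleTAT, ProAGG, ProCGG or ProTGG, that is the amino acid and the anticodon. They are 5 of the 60 isoacceptor families in the tRNA-seq table. By gene, they are 68 of the 3283 predicted tRNA loci counted in Pol III chromatin, 26 of the 1143 genes named in the tRNA-seq table and 21 of the 249 distinct genes in the list of transcribed genes used here. IleAAT contributed 26 predicted loci, IleTAT 7, ProAGG 20, ProCGG 5 and ProTGG 10.

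Skin was taken from males at postnatal day 25, when hair follicles enter their growth phase. NSun2-/- mice carry a gene-trap insertion in NSun2, both genotypes have a C57Bl6/J CBA F1 background, and WT animals came from the breedings that gave the mutants. Small RNA including tRNA (tRNA-seq) and bisulphite-converted RNA were sequenced from 4 WT and 4 NSun2-/- libraries each, described as independent biological replicates. Pol III chromatin, precipitated with antibodies to its subunit POLR3A, was sequenced from 2 WT libraries and 1 NSun2-/- library, with 1 input library per genotype and tissue of 3 mice pooled in each. The title of WT library 1 names PolII in place of PolIII, while its antibody label names POLR3A, and the antibody label was followed. All cells of the skin were sampled together and the loss of NSun2 was not restricted to a cell type. The tables hold tRNA loci, reads and cytosines, so neither the NSun2 transcript nor marker genes of skin cells were checked.

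NSun2 is an RNA methyltransferase that adds a methyl group to carbon 5 of cytosines in tRNA, mostly where the variable loop meets the TΨC arm, at positions 48 to 50. Cleavage in the anticodon loop splits a tRNA into a 5′ fragment and a 3′ fragment that keeps the CCA end added after transcription, and angiogenin is known to make such cuts in tRNAs that lack the methyl groups. Within an isotype the families read different codons of 1 amino acid. The genes with A at the first anticodon base depend on its conversion to inosine, which reverse transcriptase reads as G.

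The gene sequences decide which reads can be told apart, so Pro genes of each kind and an IleTAT gene are shown from mm9. Capitals mark the anticodon and positions 48 to 50, counted in the standard tRNA numbering.
chr1.trna672-ProAGG: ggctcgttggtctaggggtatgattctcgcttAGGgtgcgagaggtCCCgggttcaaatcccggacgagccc
chr1.trna1022-ProCGG: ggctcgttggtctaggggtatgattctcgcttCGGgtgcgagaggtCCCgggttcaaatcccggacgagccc
chr11.trna207-ProTGG: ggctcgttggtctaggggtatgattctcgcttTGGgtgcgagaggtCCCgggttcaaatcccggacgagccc
chr7.trna441-ProTGG: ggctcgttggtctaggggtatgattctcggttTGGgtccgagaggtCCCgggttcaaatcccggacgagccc
chr17.trna516-IleTAT, intron removed: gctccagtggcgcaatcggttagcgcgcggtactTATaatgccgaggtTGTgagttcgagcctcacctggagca

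The genes lie at chr1:167571765-167571836 (plus strand), chr1:167572402-167572473 (minus), chr11:48669782-48669853 (plus), chr7:105963925-105963996 (plus) and chr17:84261284-84261376 (plus), in the order shown. The Pro families differ at the first anticodon base alone: relative to the ProAGG gene, the ProCGG gene has A34C and most ProTGG genes have A34T. The exception is chr7.trna441-ProTGG, which carries C31G and G39C besides A34T, a change at both bases of 1 pair of the anticodon stem. All 6 listed IleAAT genes are identical to one another, and mm9 holds 8 copies of that sequence. IleAAT has cytosines at positions 48 and 50, Pro genes have them at 48, 49 and 50, and IleTAT genes have T, G and T there. IleTAT genes are also interrupted, by an intron of 19 bases in chr17.trna516-IleTAT and of 20 bases in chr13.trna987-IleTAT.

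Of 24 loci examined, which are the 21 listed genes and 3 further copies in mm9, 21 lie outside the genes annotated by GENCODE. chr13.trna92-IleAAT lies in an intron of the lincRNA gene Gm11292. chr13.trna987-IleTAT (chr13:21988807-21988900, minus strand) overlaps the exon of the miRNA gene Mir1983 on the same strand.

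A read that stops before the anticodon mostly cannot be given to 1 Pro family. The same holds for a read that begins after it, and for one with G at position 34, a base no Pro gene has there. Reads that matched several Pro families equally well were therefore kept as a unit of their own, called shared Pro reads. chr7.trna441-ProTGG is the only Pro gene with both 5′ and 3′ fragments of its own, namely those that hold a base in which it differs. Each read sequence was put into 1 class. 5′ fragments were 25 to 40 nt long and began at the first gene nucleotide, 3′ CCA fragments were 25 to 40 nt long with the CCA end, mature tRNA covered at least 90% of a gene with CCA, and the rest were other reads. The libraries held between 17316431 and 36685309 counts, and levels are given as counts per 1000000 of these (CPM). In 96.4% of 196 Ile sequences and 46.8% of 509 Pro sequences, the 8 counts share a common factor above 1, with a median factor of 38 in IleAAT 3′ CCA fragments. Counts are therefore not numbers of independent reads, and levels of different families or classes do not stand on 1 scale.

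5′ fragments of IleAAT were lower in NSun2-/- skin, while those of the Pro tRNAs did not pass the test as set, ProCGG being near the threshold. IleAAT 5′ fragments were at 113, 119, 93.1 and 101 CPM in the WT libraries and at 76.9, 45.8, 55.4 and 60.6 CPM in the NSun2-/- libraries. The groups did not overlap. Their means were 106 ± 11.7 and 59.7 ± 13.03 CPM (SD, n = 4 each), and the log2 fold change between NSun2-/- and WT was -0.97 with SE 0.28 (edgeR, adjusted p = 0.029). In bulk skin, fewer cells that hold such fragments and fewer fragments per cell cannot be told apart.

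Shared Pro 5′ fragments, the most abundant member class, were at 4038, 2479, 3197 and 2301 CPM in WT and at 1745, 2714, 2899 and 2304 CPM in NSun2-/- libraries. These ranges overlap, and the log2 fold change was -0.47 with SE 0.29 (edgeR, adjusted p = 0.21). ProCGG 5′ fragments, which reach the first anticodon base, were at 11.2, 15.1, 16.6 and 15.01 CPM in WT and at 7.11, 7.85, 14.4 and 5.99 CPM in NSun2-/- libraries. NSun2-/- library 3 lay among the WT values, and the log2 fold change was -0.86 (edgeR, adjusted p = 0.066). For ProTGG it was -0.29 (edgeR, adjusted p = 0.62), with 3.02 to 10.5 CPM in NSun2-/- around the WT range of 6.09 to 7.68 CPM.

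So 1 of the 4 tested member units was called, against 31.9% of all 47 units in either direction and 14.9% in the lower direction. The call for IleAAT was lost when only reads without a mismatch were used (log2 fold change -0.39, adjusted p = 0.39 by edgeR) and with gene names as the authors list them (adjusted p = 0.062). It was also lost without WT replicate 2 (adjusted p = 0.053), WT replicate 4 or NSun2-/- replicate 3 (0.058 each). ProCGG 5′ fragments were called in 3 settings, with reads without a mismatch (log2 fold change -0.96, adjusted p = 0.024 by edgeR), without NSun2-/- replicate 3 (-1.28, 0.024) and with fragments of 30 to 37 nt (-0.91, 0.045), and in the first and second of these IleAAT was not.

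The commonest fragments show where reads of each class end or begin, and whether a cut lies there was not tested. The 2 with the highest mean level of the shared Pro reads are printed for each class, with substituted bases in capitals.
Pro 5′ fragment, no substitution: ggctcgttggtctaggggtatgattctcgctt
Pro 5′ fragment, G9C: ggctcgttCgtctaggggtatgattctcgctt
Pro 3′ CCA fragment, A58G: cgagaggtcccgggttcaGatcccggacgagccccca
Pro 3′ CCA fragment, A58T: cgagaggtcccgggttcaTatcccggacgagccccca

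Pro 5′ fragments ended almost at 1 place in both genotypes. Position 33, the base before the anticodon, was the last base in 83.9%, 84.7%, 88.5% and 86.6% of them in WT and in 86.1%, 82.5%, 86.9% and 89.0% in NSun2-/- libraries. The means differed by 0.213 percentage points (exact permutation test, p = 0.89). IleAAT 5′ fragments were spread over more ends, with 39.5% ± 4.28 of them ending at position 32 in WT and 41.5% ± 4.03 in NSun2-/- (SD, n = 4 each), and 34.1% ± 11.6 and 28.7% ± 6.34 at position 33. None of the 4 end positions tested in IleAAT 5′ fragments passed the test (lowest p = 0.17, exact permutation test).

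The 3′ CCA fragments of Pro began at more places. Position 40 was their first base in 29.7%, 41.8%, 35.9% and 33.5% in WT and in 23.2%, 21.99%, 23.6% and 15.9% in NSun2-/- libraries, without overlap. The difference had p = 0.0286 and an adjusted p of 0.44 over 23 end positions (exact permutation test). It turned to 4.84 percentage points higher in NSun2-/- when each distinct sequence was counted once per library.

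3′ CCA fragments of both isotypes were at lower CPM in NSun2-/- skin, and so was this read class as a whole. Over all tRNAs the class made up 3.05% of counts in WT and 1.01% in NSun2-/- libraries (p = 0.0286 by an exact permutation test, two-sided, the lowest value possible with 4 libraries against 4). IleAAT 3′ CCA fragments were at 443, 607, 206 and 305 CPM in WT and at 236, 66.3, 126 and 122 CPM in NSun2-/- libraries. NSun2-/- library 1 lay above WT library 3, so the groups overlap. Shared Pro 3′ CCA fragments were at 160, 447, 207 and 224 CPM in WT and at 84.8, 15.1, 43.4 and 61.9 CPM in NSun2-/- libraries, without overlap. Of chr7.trna441-ProTGG, only 3′ CCA fragments that include position 39 can be told from the shared ones. These were at 1.73, 19.1, 11.6 and 7.37 CPM in WT and 2.47, 0.763, 4.66 and 1.14 CPM in NSun2-/- libraries.

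Whether these differences are called depends on the scaling. With TMM, which balances most families within the read class, the log2 fold change was 0.05 for IleAAT (edgeR, adjusted p = 0.90), -0.91 for shared Pro reads (0.058) and -0.62 for ProTGG (0.55), so that 0 of 3 member units were called, against 11.9% of 42 units. Shared Pro reads alone had an unadjusted p under 0.05, as did 40.5% of all units, and DESeq2 called them (adjusted p = 0.017). With scaling by all tRNA-seq counts they were -1.51 (0.022), -2.34 (0.0023) and -2.14 (0.022), all 3 called, against 64.3% of all units. The median of all 42 units moved from 0.08 to -1.54 between the scalings. Relative to that median, shared Pro 3′ CCA fragments were lower under either scaling, and IleAAT was close to it.

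**Figure D1:**
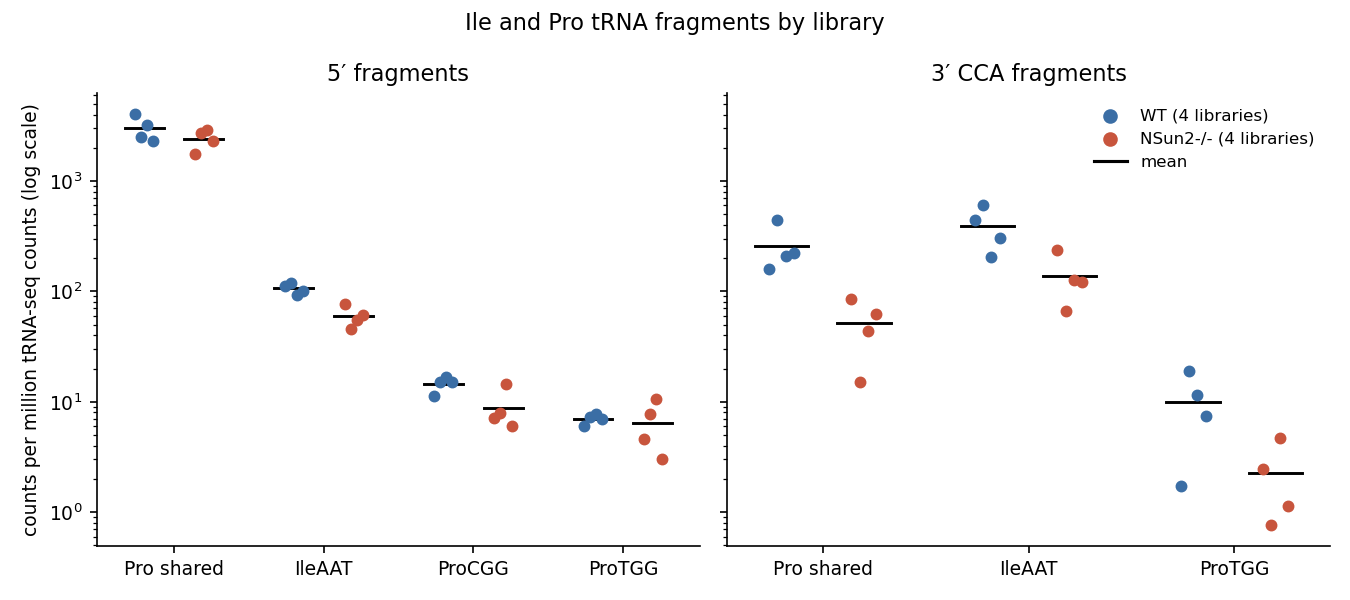
5′ fragments (left) and 3′ CCA fragments (right) of shared Pro reads, IleAAT, ProCGG and ProTGG in CPM on a log axis; each point is 1 library and each bar the mean of 4. IleAAT 5′ fragments and shared Pro 3′ CCA fragments separate the genotypes, whereas shared Pro 5′ fragments overlap, with 4038 CPM in the highest WT and 1745 CPM in the lowest NSun2-/- library.

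As a share of a family's own reads, which no scaling moves, 3′ CCA fragments were lower in all NSun2-/- libraries. They made up 49.2%, 48.7%, 34.6% and 35.0% of IleAAT reads in WT and 33.1%, 17.2%, 25.5% and 31.5% in NSun2-/- libraries. Of Pro reads they made up 3.17%, 11.3%, 5.18% and 6.84% in WT and 3.07%, 0.488%, 1.34% and 2.12% in NSun2-/- libraries. WT library 1 and NSun2-/- library 1 were almost level for Pro. Both differences had p = 0.0286 and an adjusted p of 0.11 over the 8 class shares tested (exact permutation test). With each distinct sequence counted once per library, the difference for IleAAT shrank from -15.0 to -5.00 percentage points. Among all isotypes, 38.1% of 21 had non-overlapping, lower shares. The shares of 5′ fragments in IleAAT (12.3% and 12.4%) and Pro reads (71.4% and 76.4%) differed by less than the spread between libraries.

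Mature molecules of these tRNAs were hardly recorded. No IleAAT sequence was in this class, and the Pro tRNAs had 1 sequence, which carries C34G and A58G relative to a ProCGG gene and was counted 28 times in each of WT libraries 1 and 4 only, its common factor being 28.
Pro mature tRNA: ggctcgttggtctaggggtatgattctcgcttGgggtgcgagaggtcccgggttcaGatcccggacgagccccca
None of the members passed the filter on low counts for mature tRNA, and without the filter 1 was tested and not called. Of the 18 units of other tRNAs tested, edgeR called 0, with 2 (11.1%) at an unadjusted p under 0.05, and DESeq2 called 1.

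Summed over all classes, 0 of 6 member units were called, against 22.4% of 58 units, and 1, IleAAT, had an unadjusted p under 0.05, as did 36.2% of all units. IleAAT was the closest, with 900, 1246, 596 and 872 CPM in WT, 713, 385, 492 and 387 CPM in NSun2-/- libraries and a log2 fold change of -0.46 (edgeR, adjusted p = 0.076). By DESeq2, 0 of 6 were called as well. Shared Pro reads differed by -0.02 (adjusted p = 0.97), ProAGG by -0.22, ProCGG by -0.46, ProTGG by -0.31 and IleTAT by -0.97 on the log2 scale (adjusted p = 0.84, 0.16, 0.34 and 0.34). The ProAGG unit held only 11 sequences, all of them reads that run past the gene end, with 43 to 148 counts per library. ProAGG reads with G at the first anticodon base are among the shared Pro reads. The ProAGG value is therefore not the level of the whole family.

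Among single read sequences, 331 of the members' were tested with 12605 in all, and 4 were called (3 of them lower in NSun2-/-), against 2.42% of all sequences. The lower ones were 3′ ends. The Pro 3′ CCA fragment with A58T printed above had 403, 1272, 751 and 1098 counts in WT and 169, 54, 54 and 113 in NSun2-/- libraries, a log2 fold change of -2.92 with SE 0.57 (edgeR, adjusted p = 0.037). The same fragment shortened by its first base had 54, 283, 226 and 112 counts in WT and 0 in every NSun2-/- library (adjusted p = 0.024). An IleAAT 3′ read of 42 nt had 76, 38, 114 and 76 counts in WT, all multiples of 38, and likewise 0 in NSun2-/- (adjusted p = 0.024). The sequence that was higher, a Pro read that starts inside the gene and ends before the anticodon, had 0 counts in WT and 10, 22, 46 and 34 in NSun2-/- libraries (adjusted p = 0.040).

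Reads also differ from the genes at fixed positions, where modified bases disturb reverse transcription. Position 9 of Pro and position 26 of Ile carry methylated guanosines in many tRNAs, position 34 can hold inosine, position 37 of Pro holds 1-methylguanosine and position 58 holds 1-methyladenosine, as background. At position 9, where Pro genes have G, another base was read in 18.9% ± 0.554 of Pro reads in WT and 20.1% ± 0.432 in NSun2-/- (SD, n = 4 each). The groups did not overlap except by WT library 1 (19.7%), and p was 0.057 (0.57 adjusted over 40 bases tested, exact permutation test). At position 26, where IleAAT genes have G, T was read in 84.7% ± 3.33 and 84.7% ± 3.12.

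At position 34, where IleAAT genes have A, G was read in 99.5% ± 0.559 of IleAAT reads in WT and in 100% in each NSun2-/- library. No Pro read in any library had A there, although ProAGG is the largest of the Pro families. Of Pro reads that cross position 34, 72.4% ± 1.60 in WT and 74.02% ± 3.99 in NSun2-/- had G, 13% ± 0.766 and 11.6% ± 3.70 had C, and 14.6% ± 1.25 and 14.4% ± 1.44 had T. G was the commonest in all 8 libraries, and the genotypes overlapped for each base. The commonest such Pro read is shown, with the G in place of the first anticodon base as its capital. It is a shared Pro read, and its label C34G is given relative to a ProCGG gene. The label does not tell which Pro family the read came from, or which gene base was read as G.
Pro read with C34G: ttGgggtgcgagaggtcccgggtt
Other families with A at the first anticodon base were compared. G was read there in every read of AlaAGC and ThrAGT and in 80.6% (WT) and 78.6% (NSun2-/-) of reads of ValAAC, the last from 7 sequences with 37 to 105 counts per library. Only reads that matched 1 family were counted. Any read with G that matched several families equally well was left out, which can lower the share.

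At position 37, where Pro genes have G, another base was read in 23.1% ± 3.56 of Pro reads in WT and 22.5% ± 3.45 in NSun2-/-, most often T (20.0% and 19.9%). IleAAT reads had the gene's A there in every library. At position 58, IleAAT reads had a base other than the gene's A in 89.7% ± 1.48 in WT and 87.8% ± 2.49 in NSun2-/- (p = 0.26, exact permutation test, n = 4 each).

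Position 58 of Pro was the only base whose shares did not overlap between the genotypes. A base other than A was read in 84.4%, 88.6%, 89.4% and 85.2% of Pro reads in WT and in 81.6%, 64.0%, 76.2% and 75.99% in NSun2-/- libraries. The difference had p = 0.0286 and an adjusted p of 0.57 (exact permutation test), and 9.52% of 21 isotypes had non-overlapping, lower shares. Within Pro reads that end in full CCA the shares were 94.3% ± 1.404 in WT and 94.5% ± 2.26 in NSun2-/- (p = 0.97, exact permutation test, n = 4 each), a split chosen after the values were seen. Reads ending in genomic trailer had A in 11 of 12 sequences. By counts, another base was read in 39.5% of them in WT library 1, in 32.3% in NSun2-/- library 1 and in 0% in every other library. Reads ending inside the gene had another base in 68.3% ± 4.54 in WT and 54.9% ± 5.96 in NSun2-/- (adjusted p = 0.14 over 5 kinds of ends, exact permutation test).

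**Figure D2:**
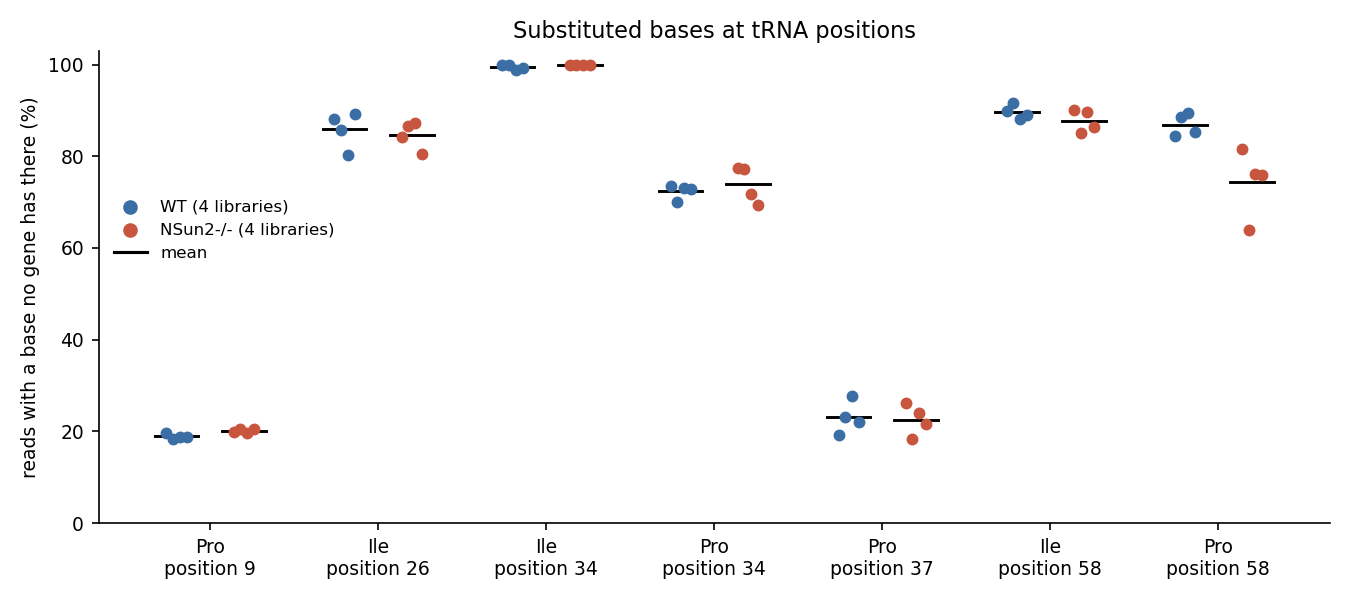
Share of reads (%) with a base that no gene of the isotype has at positions 9, 26, 34, 37 and 58 of Ile or Pro tRNA; each point is 1 library and each bar the mean of 4 per genotype. Shares range from about 19% to 100% by position and overlap between genotypes at all positions shown but Pro position 58, with means of 86.9% in WT and 74.4% in NSun2-/-.

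The kinds of 3′ end that a Pro read had also differed between the genotypes. Before a tRNA can be charged, its genomic trailer is removed and CCA is added, and a damaged CCA end is repaired by the same enzyme that adds it. Among Pro reads that reach the last gene nucleotide, full CCA made up 81.4%, 87.9%, 90.9% and 87.2% in WT and 75.7%, 56.9%, 70.7% and 56.8% in NSun2-/- libraries. Every NSun2-/- value lay below every WT value (p = 0.0286, adjusted 0.076 over 8 shares, exact permutation test). The same separation was seen in 47.6% of 21 isotypes.

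Partial CCA ends took 3.28%, 2.08%, 2.61% and 3.25% in WT and 10.8%, 10.5%, 9.74% and 15.5% in NSun2-/- libraries, and genomic trailers took 8.04%, 5.48%, 2.55% and 4.54% in WT and 11.04%, 14.7%, 9.38% and 12.6% in NSun2-/- libraries. Both were higher in every NSun2-/- library (p = 0.0286, adjusted 0.076, exact permutation test). Of 21 isotypes, 38.1% showed this for partial CCA and 14.3% for trailers. With each distinct sequence counted once per library, the difference in partial CCA shrank from 8.82 to 2.92 percentage points (p = 0.11, exact permutation test). The rest ended at position 73, with 5.21% ± 1.44 in WT and 11.4% ± 6.74 in NSun2-/- (p = 0.14, exact permutation test, n = 4 each).

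The separation of the trailer shares rests on 2 sequences of chr7.trna441-ProTGG, which had 75, 377, 0 and 75 counts in WT and 150, 225, 150 and 0 in NSun2-/- libraries. With these left out, trailers took 6.61%, 2.06%, 2.55% and 3.52% in WT and 8.06%, 3.50%, 2.84% and 12.6% in NSun2-/- libraries, which overlap (p = 0.23, exact permutation test). Full CCA (82.7%, 91.04%, 90.9% and 88.1% against 78.2%, 64.4%, 75.8% and 56.8%) and partial CCA still separated the genotypes (p = 0.0286, adjusted 0.11 over 8 shares, exact permutation test), an alternative chosen after the values were seen. In counts, all Pro trailer reads stood at 395, 592, 170 and 322 in WT and 510, 285, 209 and 282 in NSun2-/- libraries, which overlap. In IleAAT, full CCA made up 97.6% ± 0.535 and 95.7% ± 1.09 of such reads (p = 0.057, exact permutation test, n = 4 each), partial CCA the rest, and no trailer was read.

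**Figure D3:**
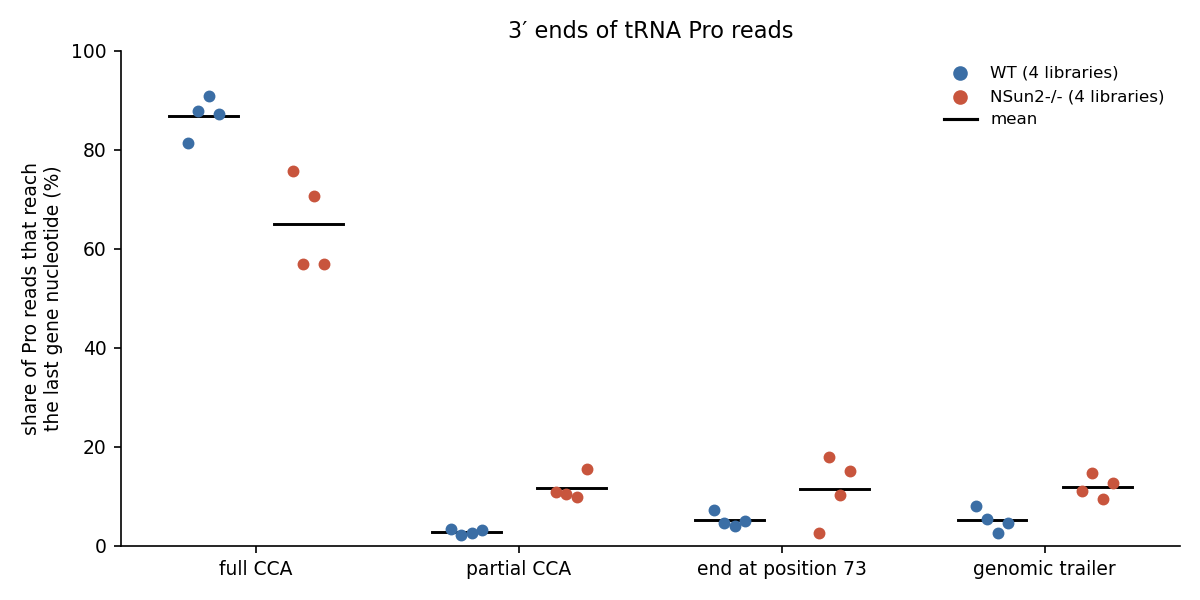
Share (%) of Pro reads reaching the last gene nucleotide that end in full CCA, in part of CCA, at position 73 or in genomic trailer; each point is 1 library and each bar the mean of 4 per genotype. Full CCA falls from a mean of 86.8% in WT to 65.0% in NSun2-/-, and partial CCA and trailer lie higher in all NSun2-/- libraries, the trailers only while 2 sequences of chr7.trna441-ProTGG are included.

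Trailers can tell apart Pro genes whose bodies are identical. Of 20 Pro sequences with trailer, some matched several families, and the others were placed at chr7.trna441-ProTGG, at chr11.trna207-ProTGG and at 5 ProAGG genes, chr1.trna672, chr3.trna93, chr6.trna46, chr7.trna977 and chr14.trna705, with 1 to 3 sequences each. Among the ProAGG genes, the highest summed counts were those of chr14.trna705-ProAGG, with 49, 35, 34 and 32 in WT and 35, 13, 15 and 50 in NSun2-/- libraries, and of chr1.trna672-ProAGG, with 42, 33, 23 and 40 against 56, 19, 11 and 33. Neither gene separated the genotypes. One such read runs from the TΨC arm of chr14.trna705-ProAGG (chr14:51684489-51684560, minus strand) into the T run that follows the gene, and keeps A at position 58.
ProAGG read with trailer: caaatcccggacgagccctacttt

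The divergent gene chr7.trna441-ProTGG was traced by 11 sequences of its own. Its 5′ fragments had 68, 75, 102 and 83 counts in WT and 49, 198, 134 and 18 in NSun2-/- libraries, and its 3′ CCA fragments 31, 330, 281 and 165 against 49, 28, 110 and 20. Both overlap between the genotypes, and so do its trailer reads given above. The classes cannot be ranked by these counts. Common factors reach 77 among other ProTGG reads, against 4 in ProTGG 5′ fragments and 5 in 3′ CCA fragments. Its commonest 5′ fragment ends where that of the shared Pro reads does, and its commonest 3′ CCA fragment begins 1 base earlier, at position 39, with the base exchanged by G39C. A 3′ CCA fragment of this gene that begins after position 39 equals those of the other Pro genes and was counted as shared. The earlier start is therefore fixed by the assignment and does not show a different end.
chr7.trna441-ProTGG 5′ fragment: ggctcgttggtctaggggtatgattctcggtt
chr7.trna441-ProTGG 3′ CCA fragment, A58G: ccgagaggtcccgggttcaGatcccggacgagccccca

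IleTAT reads, placed only on the 2 listed IleTAT genes, were few, with 6 sequences and between 0.900 and 6.48 CPM per library. The WT values were 6.48, 2.66, 4.13 and 2.41 CPM and the NSun2-/- values 2.42, 0.900, 1.35 and 2.00 CPM, which overlap by a narrow margin between WT library 4 and NSun2-/- library 1. In WT library 3, 40 of the 100 counts came from 1 sequence that is absent elsewhere. No IleTAT read was a 5′ fragment, a 3′ CCA fragment or mature tRNA by the lengths used. The sequences that show its processing are an end with CCA and 2 reads of 45 nt that begin at the first base after the intron and run into the trailer of chr17.trna516-IleTAT.
IleTAT read with CCA: gcctcacctggagcacca
IleTAT exon with trailer, A58G: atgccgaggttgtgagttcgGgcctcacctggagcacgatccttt
IleTAT exon with trailer, A58T: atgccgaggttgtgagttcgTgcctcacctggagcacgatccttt
Together the reads with trailer had 15, 9, 8 and 12 counts in WT and 6, 15, 14 and 6 in NSun2-/- libraries, overlapping. In these 2 reads position 58 was substituted, unlike in the Pro read with trailer above, and no exon read with trailer and A at position 58 was listed. Another IleTAT read, of 33 nt and without trailer, did have A at position 58. It had 26, 4, 2 and 6 counts in WT and 4, 0, 6 and 2 in NSun2-/- libraries.

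The miRNA annotated over chr13.trna987-IleTAT is made of the same kind of end. Its mature sequence in RefSeq (GRCm38.p6), with the seed in capitals, is printed for comparison.
mmu-miR-1983: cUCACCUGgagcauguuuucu
Its first 13 bases are the last 13 of the tRNA gene and its other 8 bases are the start of the trailer. None of the 31355 placed read sequences holds it.

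Bisulphite sequencing reports methylated cytosines as unconverted reads, and a cytosine is listed from 10 reads in a library. WT libraries listed between 156018 and 196679 cytosines and NSun2-/- libraries between 110324 and 665049. At the members' genes, cytosines at positions 48 to 50 were listed in both genotypes at 2 ProCGG and 2 IleAAT genes, and no ProAGG or ProTGG gene was listed in WT. Where gene copies are identical, reads listed at 1 copy may come from another.

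At chr1.trna1022-ProCGG, C49 and C50 were unconverted in 10 of 10 reads each in WT library 3 (100%, 95% Wilson interval 72.2 to 100) and C48 in 0 of 10. In WT library 4 they were unconverted in 8 of 11 (72.7%, 43.4 to 90.3) and 10 of 11 reads (90.9%, 62.3 to 98.4), and C48 in 4 of 12. In the 4 NSun2-/- libraries the shares were 8.93%, 12.5%, 1.56% and 3.03% at C49 and 12.1%, 29.2%, 4.62% and 3.03% at C50, on 24 to 65 reads. So both listed WT libraries lay above all NSun2-/- libraries at these cytosines. Over the gene's other listed cytosines, the background of conversion, unconverted reads made up 20.0% and 33.3% in WT libraries 3 and 4 and 10.1%, 17.3%, 2.29% and 3.09% in NSun2-/- libraries.

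chr17.trna83-ProCGG (chr17:23677882-23677953, plus strand) gave the same picture. C49 and C50 were unconverted in 9 of 10 reads each in WT library 1 and in 12 of 12 each in WT library 4, where C48 was so in 2 of 11. In NSun2-/- libraries the shares were 6 of 111, 1 of 10, 1 of 112 and 4 of 50 reads at C49, and 10 of 110, 1 of 10, 3 of 111 and 5 of 50 at C50. Other cytosines of the gene stood at 2.50% and 13.7% in the WT libraries and between 1.13% and 11.4% in NSun2-/- libraries. As in chr1.trna1022-ProCGG, C48 was the lowest of the 3 sites in the WT libraries that listed it.

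IleAAT differed in which cytosine stood out. At chr13.trna92-IleAAT, C48 was unconverted in 22 of 22 reads of WT library 4 (100%, 95% Wilson interval 85.1 to 100) and C50 in 4 of 23 (17.4%, 6.98 to 37.1). NSun2-/- libraries 1, 3 and 4 had 4 of 21, 1 of 28 and 6 of 12 reads unconverted at C48, where the gene's other cytosines stood at 40.6%, 2.95% and 51.7%. In WT library 4 those stood at 19.7%. At chr13.trna956-IleAAT only C50 was listed in WT, with 5 of 12 reads unconverted in library 4. In its 4 NSun2-/- libraries C50 had 14 of 57, 8 of 20, 0 of 15 and 6 of 39, so WT library 4 (41.7%, 19.3 to 68.0) and NSun2-/- library 2 (40.0%) were level.

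**Figure D4:**
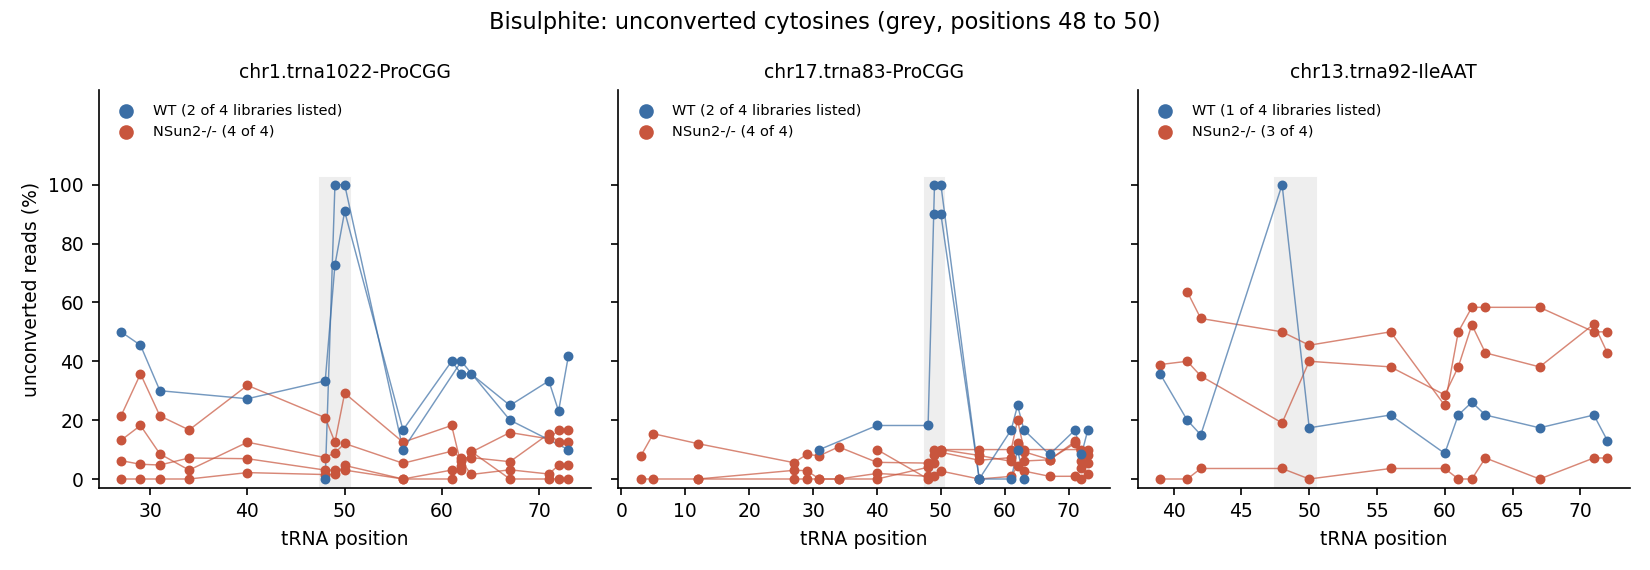
Unconverted reads (%) at each listed cytosine of chr1.trna1022-ProCGG, chr17.trna83-ProCGG and chr13.trna92-IleAAT by tRNA position; points of 1 library are joined, blue for WT and red for NSun2-/-, and grey marks positions 48 to 50. WT values reach 90% or more at C49 or C50 of both ProCGG genes and at C48 of the IleAAT gene, where the NSun2-/- values reach at most 50%.

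No member cytosine at positions 48 to 50 had 10 reads in 3 libraries of each genotype, so none of these differences was tested. The 9 member cytosines that did all belong to chr17.trna516-IleTAT, which has no cytosine at positions 48 to 50. edgeR's test called 0 of the 9, with 0 at an unadjusted p under 0.05 and a lowest adjusted p of 0.98, against 0.277% of 118467 cytosines tested. Over the listed cytosines of this gene, unconverted reads made up 9.02%, 2.05% and 8.26% in WT libraries 1, 3 and 4 and 18.2%, 9.21%, 1.78% and 10.4% in the NSun2-/- libraries.

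Pol III, the polymerase that transcribes tRNA genes, occupied 23 of the 68 member loci in WT skin: 8 IleAAT, 1 IleTAT, 6 ProAGG, 3 ProCGG and 5 ProTGG. A locus counted as bound from 10 reads in both WT libraries and 2 times the input. High counts were seen at chr13.trna956-IleAAT, with 293 and 373 in the WT libraries and 683 in the NSun2-/- library, at chr12.trna470-IleAAT, with 147, 433 and 566, and at chr11.trna1823-IleAAT, with 231, 290 and 499. Because depth differed, counts were scaled to CPM by the library totals, 36866 and 63136 in WT and 95112 in NSun2-/-. Pol III stood at 3825 and 5322 CPM in WT and 5688 in NSun2-/- at chr7.trna441-ProTGG. The identical ProTGG genes ran from 1329 to 4259 CPM in WT library 1, 1631 to 4926 in WT library 2 and 2166 to 5120 in NSun2-/-. Their lowest values were all those of chr11.trna207-ProTGG.

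The log2 ratio of NSun2-/- to the WT mean at the bound member loci had a median of 0.15 and ran from -0.26 at chr17.trna83-ProCGG to 0.57 at chr13.trna968-IleAAT. It was above 0 at 19 of 23, where 67% of all 212 bound loci were, and their median was 0.16. None of the 23 passed 2-fold, against 0.472% of bound loci. With 1 NSun2-/- library there is no test. Between the 2 WT libraries the same member loci differed by -0.69 (chr7.trna977-ProAGG) to 0.83 (chr13.trna989-IleAAT) on the log2 scale, a wider range than between the genotypes.

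By family, the median log2 ratio was 0.14 for the 8 IleAAT loci, 0.22 for the IleTAT locus, 0.13 for ProAGG, 0.03 for ProCGG and 0.26 for ProTGG. Scaled to the bound loci instead of all counts, it was -0.07, 0.0058, -0.09, -0.19 and 0.04 in the same order, so that the sign of the IleAAT, ProAGG and ProCGG medians turned. Of the IleTAT genes, chr7.trna156-IleTAT was the bound one, with 75 and 163 counts in WT and 257 in NSun2-/-. This gene is not in the list of transcribed genes used here, so no reads were placed on it and its cytosines were not examined. chr17.trna516-IleTAT, the source of the exon reads with trailer, had 53, 194 and 290 counts and 24 in the WT input, and chr13.trna987-IleTAT had 37, 86 and 82 counts and 18 in that input. Neither reached 2 times the input in either WT library, with a pseudocount of 1 added to each count.

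**Figure D5:**
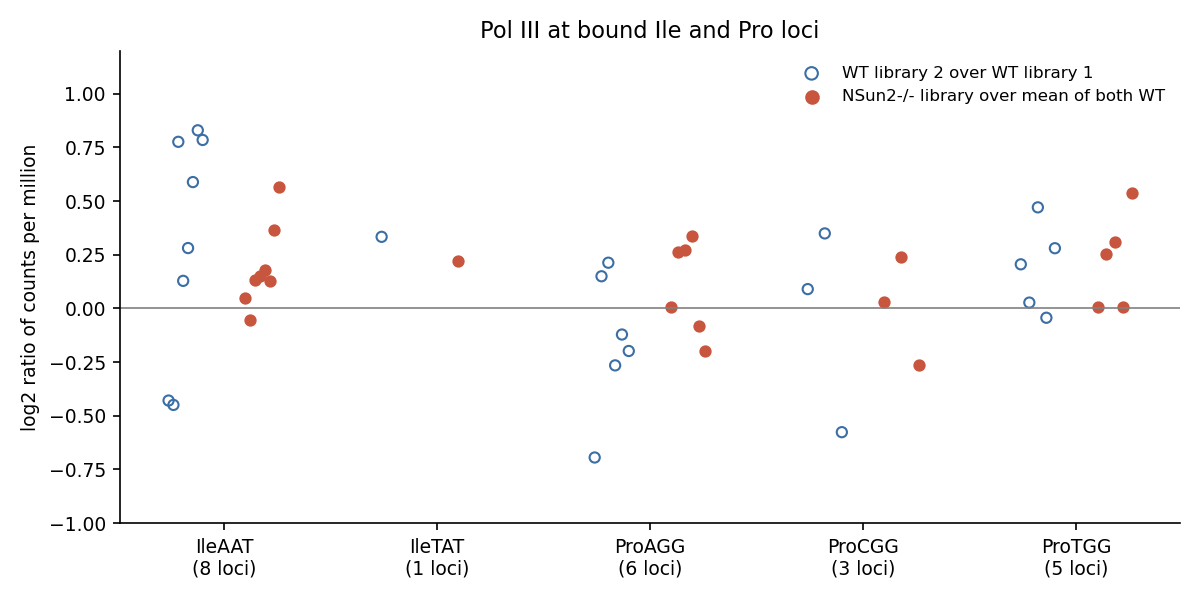
Log2 ratio of Pol III CPM at each bound Ile and Pro locus, with open circles for WT library 2 over WT library 1 and filled circles for the NSun2-/- library over the mean of both WT libraries. The ratios between genotypes lie between -0.26 and 0.57, inside the range between the WT libraries.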

How the data were processed

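tRNA-seq and Pol III values are counts the authors deposited per tRNA gene and read sequence or per predicted locus, after Bowtie alignment to mm9, trimming of CCA ends and distribution of multiply matching reads. For bisulphite RNA the authors deposited percent unconverted and both counts per cytosine from 10 reads, from Bismark alignments. Listed positions fell on mm9 cytosines once 1 was added. The read sequences of all 53875 rows, under 1143 gene names, were placed on the 249 distinct genes listed (mm9) with at most 4 mismatches. Counts of a sequence were added up over its rows, whichever gene the authors named, giving 31355 sequences. Between 0.175% and 0.206% of counts were not placed. Of 46162 rows at listed genes, 16.7% were placed in the orientation opposite to that gene's strand. Families were tested with edgeR 4.0.16 in R 4.3.3 (quasi-likelihood, TMM, filterByExpr, Benjamini-Hochberg, threshold 0.05), and shares with an exact permutation test, two-sided, of all 70 assignments of the libraries. Cytosine intervals are 95% Wilson intervals, cover counting error only, and need 10 reads. Pol III ratios used a pseudocount of 1. Python 3.11.15 with pandas 2.3.3 and scipy 1.17.1 made the other tables.

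On simulated 4-fold changes the test recovered 97.5% of 200 changed features among 2000 for 5′ fragments, and 86.0% of 193 among 1989 for 3′ CCA fragments, with 8 false calls each. For single sequences it recovered 64.3% of 154 changed by 32-fold among 10566. For cytosines it recovered 36% of 200 among 122731, all simulated with the same size of change, which leaves most changes of that size uncalled. The simulated fragment tables held far more features than the 47 and 42 units tested. A 4-fold change also exceeds those fitted with TMM for the members' fragments. These rates therefore do not tell how often changes of the member units would be called.

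Members, positions and lists were chosen with earlier results of these data known. Named were all 5 families and shared reads, every bound locus of the families by counts, the 2 commonest sequences per unit and class, cytosines at positions 48 to 50 listed in both genotypes, and 3 other families with A at position 34. The sequences of IleAAT are not reported here. Further reads with CCA, trailer or G at position 34 were chosen after their values were seen. Alternatives covered scaling, DESeq2 1.42.0, filters, gene names, mismatches, fragment lengths, a replicate block and each library left out.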

Additional observations from a re-analysis of the deposited data

How the results depend on the processing

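Over all values and alternatives, 336 single values and 75 summary values stayed as reported, which means the same direction and side of the threshold for a tested value, a count within 1.5 times, or a move below the spread between libraries for an untested value. Another 13 single values passed the threshold under an alternative, 6 lost it, 32 turned in direction and 3 untested ones moved by more than that spread. Of the summary values, 16 moved. The cause of a move was not tested unless its setting uses fewer sequences or libraries. Calls among the members' 5′ fragments (1 as reported) were 0 with gene names as the authors list the reads and 2 with fragments of 30 to 37 nt; without mismatched reads the 1 call was ProCGG in place of IleAAT. With 3′ CCA fragments (0 as reported) 3 were called with scaling by all counts and 1 each with DESeq2, without the filter on low counts, with the authors' gene names and with counts divided by their common factor, the last chosen after seeing the data. Over all reads (0 as reported), 1 was called with scaling by all counts. The log2 fold change of IleAAT 3′ CCA fragments turned from 0.05 to -1.51 with scaling by all counts, -0.20 without mismatched reads, -0.13 with counts divided by the common factor and -0.15 with any length under 90% of the gene. Over all reads, shared Pro reads turned from -0.02 to 0.11 with DESeq2 and 0.050 without mismatched reads, and ProAGG from -0.22 to 0.064 with the authors' gene names. With each distinct sequence counted once per library, 6 shares turned, to 4.84 percentage points for Pro 3′ CCA fragments starting at position 40 (35.2% in WT and 21.2% in NSun2-/- as deposited), 2.14 for G at Pro position 9, -3.17, 1.45 and 1.72 for G, C and T at Pro position 34, and 0.621 for full CCA in IleAAT. The median Pol III log2 ratio of the member loci was -0.065 when scaled to bound loci, where the medians of IleAAT (-0.07), ProAGG (-0.09) and ProCGG (-0.19) also fell below 0.

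With a replicate block, calls among the members fell from 1 to 0 for 5′ fragments and from 4 to 0 for single sequences, and the log2 fold change of shared Pro reads over all classes turned to 5.85e-05. Same-numbered libraries did not deviate together (correlations from -0.75 to 0.32), so they share only a number; the block changed no other call.

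With each library left out in turn, calls ranged from 0 (without WT replicate 2 or 4) to 1 for 5′ fragments, from 0 to 1 for 3′ CCA fragments (1 without WT replicate 1 or NSun2-/- replicate 4, both for shared Pro reads) and from 0 to 1 over all reads (1, IleAAT, without NSun2-/- replicate 1). The log2 fold change ran from -0.73 to 0.012 for ProTGG 5′ fragments, -0.087 to 0.16 for IleAAT 3′ CCA fragments, -0.18 to 0.10 for shared Pro reads and -0.60 to 0.12 for ProAGG over all classes. Differences in percentage points ran from -0.742 to 1.41 for Pro 5′ ends at position 33, -0.262 to 3.02 for G at Ile position 26, -0.943 to 0.26 for T at Pro position 34 and -1.03 to 1.83 for G at Pro position 37. The median Pol III log2 ratio was 0.27 without WT replicate 2 and 0.08 without WT replicate 1.

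The bisulphite comparison is limited by the few member cytosines that WT libraries list, on 10 to 28 reads, from gene copies that cannot be told apart. Shared factors in the tRNA-seq counts leave the number of molecules behind a count unknown.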
